A study of Vachellia cornigera with 24 samples.

Results

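SWEET9 is the nectary sucrose exporter of Arabidopsis flowers. The transcript assigned to it was followed through 24 libraries of extrafloral nectaries of the bullhorn acacia, *Acacia cornigera* (also named *Vachellia cornigera*). What its protein does in this acacia was not tested. Extrafloral nectaries are sugar-secreting glands outside the flower, and in this tree they feed resident ants of the species *Pseudomyrmex ferrugineus*. The gene was taken as the row of the deposited table assigned to the Arabidopsis locus AT2G39060, which is 1 of 12650 genes listed. The table names each acacia gene by its closest Arabidopsis locus and describes this one as a Nodulin MtN3 family protein, the older name of the SWEET family. Gene symbols below are the usual Arabidopsis names of the loci.

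SWEET proteins are uniporters that let sugars move down their gradient across a membrane. In flowers of Arabidopsis, *Brassica rapa* and *Nicotiana attenuata*, SWEET9 exports sucrose from the nectary parenchyma into the space between the cells, and plants that lack it secrete no nectar. There, sucrose phosphate synthases make sucrose from the products of starch breakdown, and a cell wall invertase (CWINV4 in Arabidopsis) splits the exported sucrose into glucose and fructose. In *Acacia cornigera* and its relatives that house ants, nectar contains invertase, and its sugars are mainly glucose and fructose.

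All nectaries came from field plants in Mexico, and those of several individual plants were pooled into 1 library. The ant treatments were removal of the ants for 2 days (ants removed, 3 libraries), a treatment titled Gracilis replacement (3 libraries), a treatment titled gut contents applied (2 libraries) and ants replaced after 2 days (1 library). The times of day were 8 am, whose 3 libraries are also the controls of the ant treatments, 9 am (3 libraries), noon (3 libraries), 2 pm (1 library), 3 pm (3 libraries) and 3 am of day 2 (2 libraries). The labels give a clock time only for the replaced ants (9 am) among the ant treatments, while the source of the gut contents and the nature of the Gracilis treatment beyond its name are not stated. The hour therefore cannot be told apart from the treatment, nor, for 8 am and 3 am, from the set or day of sampling.

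Values are the authors' normalised counts, scaled between libraries and rounded, and they are not divided by gene length. The libraries summed to between 21084300 and 32520500 normalised counts, the highest at 2 pm. The depth in reads is unknown. Noon samples 1 and 3 and ants-removed samples 2 and 3 were nearly identical across genes (Pearson r of 0.994 and 0.993 over 12264 genes), so they may not be independent replicates. The 9 am and 3 pm groups were uneven, and no library of either was most like another of its own group. At 9 am, sample 1 was most like 3 pm sample 3 (r of 0.966 across genes). Sample 2 of 9 am was most like the 2 pm library (0.976), and sample 3 most like 3 am sample 1 (0.971). At 3 pm, samples 1 and 3 were most like 9 am samples 2 (0.953) and 1 (0.966), and sample 2 most like noon sample 2 (0.988). The means and comparisons of these groups therefore mix unlike libraries. Of the defining nectary markers, CWINV4, BOP1 and PIN6 were measured in the table beside SWEET9, while no row of it was assigned to CRC or MYB21. CWINV4 lay between 5385 and 99011 normalised counts, a high level in every library.

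SWEET9 was among the most abundant transcripts of the nectary in the ant treatments and at 8 am, and it was at its own lowest level at noon. Its highest value, 290122 normalised counts in ants-removed sample 3, was 124 times its lowest, 2338 in noon sample 2. It made up 1.07% of all normalised counts in the first of these libraries and 0.00992% in the second. On the scale log2(value + 1), its range over the 24 libraries was 6.95, against a median of 1.77 over all tested genes, and 240 of the 12264 tested genes (1.96%) had a wider range. Over the 10 group means its range was 6.56, against a median of 1.34, and 119 tested genes (0.970%) exceeded it.

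In the ant treatments SWEET9 had 148801, 287499 and 290122 normalised counts with ants removed. It had 157651, 186549 and 195941 under Gracilis replacement, 178615 and 286605 with gut contents applied, and 200992 with ants replaced. At 8 am, the 3 control libraries had 206764, 125151 and 191852. Every group of the ant treatments overlapped with the controls.

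Across the day SWEET9 had 12189, 17905 and 134932 normalised counts at 9 am. It had 2501, 2338 and 2510 at noon, 22682 at 2 pm, 20512, 3754 and 4862 at 3 pm, and 129912 and 39033 at 3 am of day 2. The noon libraries were the lowest of all 24, and every library of 8 am lay above every library of noon, 2 pm and 3 pm. Sample 3 at 9 am stood apart: it fell within the range of the 8 am controls, while the other 9 am libraries lay below the 2 pm library.

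**Figure D1:**
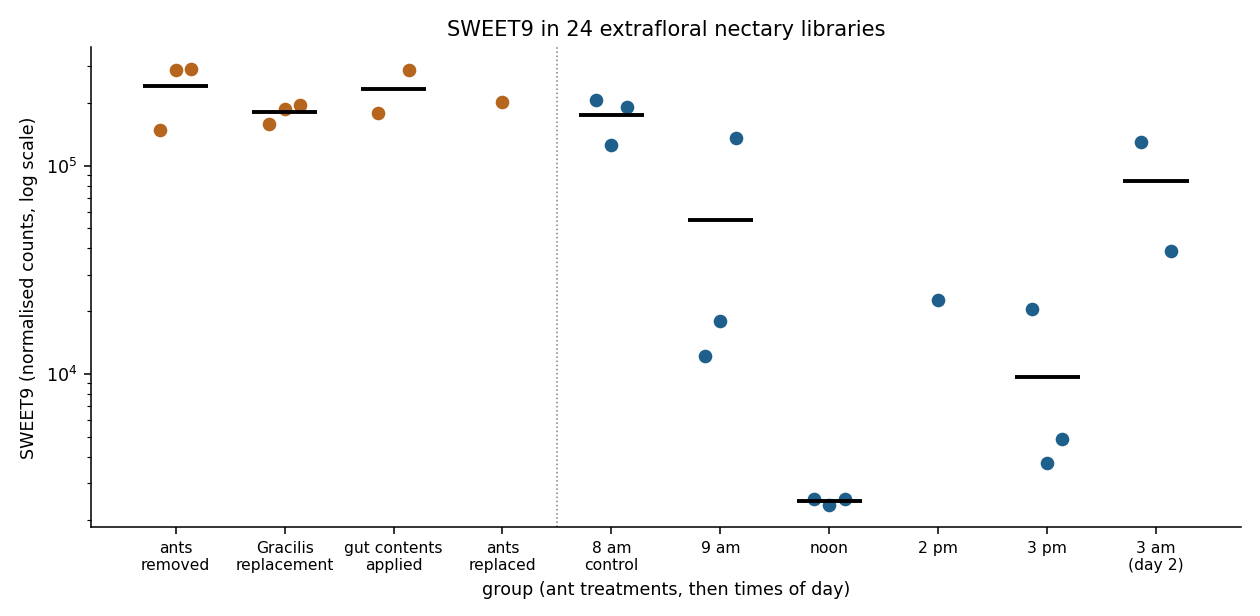
Normalised counts of SWEET9 (log axis) in each of the 24 libraries, by group, with ant treatments left of the 8 am control and the times of day to its right; each point is 1 library and each bar the mean of a group of 2 or 3. The noon libraries sit between 2338 and 2510, and the ant treatments between 148801 and 290122.

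Among the 12650 genes ranked by normalised count within a library, which is not a ranking per length, SWEET9 stood between 5 and 7 in the ant treatments and between 6 and 9 at 8 am. At noon it stood at 1879, 2181 and 1906. The rank was 188, 109 and 7 in 9 am samples 1, 2 and 3, and 134 at 2 pm. At 3 pm it was 88, 1283 and 742, and at 3 am 8 and 39. Where ants had been removed, 4 genes had higher group means: AT3G14300, a pectinesterase family protein, AT4G11650, osmotin 34, AT4G30380, a Barwin-related endoglucanase, and AT5G26130, a member of the CAP superfamily of cysteine-rich secretory proteins.

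The mean of SWEET9 was 242141 ± 80845 normalised counts with ants removed, 180047 ± 19956 under Gracilis replacement, and 174589 ± 43459 at 8 am (SD, n = 3 each). With gut contents applied it was 232610 ± 76361 (SD, n = 2). It was 55009 ± 69275 at 9 am, 2450 ± 96.8 at noon and 9709 ± 9372 at 3 pm (SD, n = 3 each), and 84473 ± 64261 at 3 am (SD, n = 2). From high to low the order of the means was ants removed, gut contents applied, ants replaced, Gracilis replacement, 8 am, 3 am, 9 am, 2 pm, 3 pm and noon. Neighbours in this order overlapped in their libraries, except that the single library of ants replaced lay above Gracilis replacement, the single 2 pm library lay above 3 pm, and 3 pm lay above noon.

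The spread within groups followed no single pattern. The coefficient of variation was 126% at 9 am, 96.5% at 3 pm and 76.1% at 3 am, but 3.95% at noon, where 2 of the 3 libraries were nearly identical. It was 33.4% with ants removed, 11.1% under Gracilis replacement, 32.8% with gut contents applied and 24.9% at 8 am. Measured as the SD of log2 values, SWEET9 was more variable than 97.8% of tested genes at 9 am, 93.8% at 3 pm and 98.1% at 3 am, against 25.2% at noon and 77.1% at 8 am.

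SWEET9 differed between the 5 replicated times of day in limma's moderated F test (F of 22.8, adjusted p = 6.23e-05, over 14 libraries). By its p it stood at 175 among 12264 tested genes, of which 39.7% passed. Of the 7 other SWEET genes tested, SWEET2 and SWEET3 passed this test. In bulk tissue, fewer cells of a type and less RNA per cell cannot be told apart, here and in all comparisons below.

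At noon SWEET9 was 69.6-fold lower than at 8 am. Its log2 change was -6.12 ± 0.72 (SE, 95% interval -7.63 to -4.61, limma adjusted p = 1.21e-05), in a comparison where 37.4% of tested genes passed. By size of change it stood at 25 among the 12264 genes. At 3 pm it was 23.7-fold lower than at 8 am, a log2 change of -4.56 ± 0.72 (SE, limma adjusted p = 0.000194, 36.8% of genes passed), and stood at 44. The groups did not overlap in either comparison. Leaving out 3 pm sample 1, the highest of its group, moved the 3 pm change to -5.32, and every other library left out kept it between -4.79 and -4.09. Both comparisons share the 8 am controls.

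At 9 am SWEET9 was lower than at 8 am by a log2 change of -2.47 ± 0.72 (SE, limma adjusted p = 0.0300, 14.2% of genes passed), with groups that overlapped. This call was not stable. Libraries of equal sample number went together in this pair of groups, and with that number as the block limma gave an adjusted p of 0.0807. In a limma fit of these groups alone it was 0.179. Leaving out 9 am sample 1 gave an adjusted p of 0.144 in limma, and leaving out 9 am sample 2 gave 0.103. Leaving out 8 am control sample 1 gave 0.0914, and leaving out control sample 3 gave 0.0831. Without 9 am sample 3 the change was -3.53 (limma adjusted p = 0.000490). Over all tested genes the median log2 change in this comparison was -0.14.

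At 3 am the difference of SWEET9 from 8 am was -1.26 ± 0.80 on the log2 scale (SE, 95% interval -2.95 to 0.43) and did not pass (limma adjusted p = 0.602, 0.832% of genes passed). The libraries of the 2 groups overlapped. At 3 am SWEET9 was higher than at noon by 4.86 ± 0.80 (log2, SE, limma adjusted p = 0.000864), where 20.3% of genes passed. Without 3 am sample 1 this was 3.99 and without sample 2 it was 5.73. It was higher than at 3 pm by 3.30 ± 0.80 (log2, SE, limma adjusted p = 0.0111), where 19.6% passed, but without 3 am sample 1 the difference was 2.44 (limma adjusted p = 0.139), and in a fit of these groups alone the adjusted p was 0.126. It was 4.17 without 3 am sample 2 and 4.06 without 3 pm sample 1. The 3 am libraries lay above every noon and every 3 pm library.

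Noon was lower than 9 am by a log2 change of -3.66 ± 0.72 (SE, limma adjusted p = 0.00887, 12.4% of genes passed), and the groups did not overlap. The median change of all genes here was 0.21. The change became -2.59 when 9 am sample 3 was left out (limma adjusted p = 0.0400) and -4.33 when 9 am sample 1 was. With the nearly identical noon and ants-removed libraries averaged in pairs the adjusted p was 0.0601 in limma, and in a fit of these groups alone 0.0528.

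Other pairs of times did not pass. SWEET9 at 3 pm differed from 9 am by -2.10 ± 0.72 (log2, SE, limma adjusted p = 0.166), with 0 genes of the table called by limma (0% of those tested, 2255 at an unadjusted p under 0.05). Without 9 am sample 1 this was -2.77 (adjusted p = 0.0391) and without 3 pm sample 1 it was -2.85 (adjusted p = 0.0434). At 3 am it differed from 9 am by 1.21 ± 0.80 (log2, SE, limma adjusted p = 0.550, 0% called, 1610 genes at an unadjusted p under 0.05). Without 9 am sample 3 this was 2.27 (adjusted p = 0.0416). At 3 pm it differed from noon by 1.56 ± 0.72 (log2, SE, 95% interval 0.05 to 3.07, limma adjusted p = 0.326, 0% called, 1798 genes at an unadjusted p under 0.05), although all 3 pm libraries lay above all noon libraries.

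**Figure D2:**
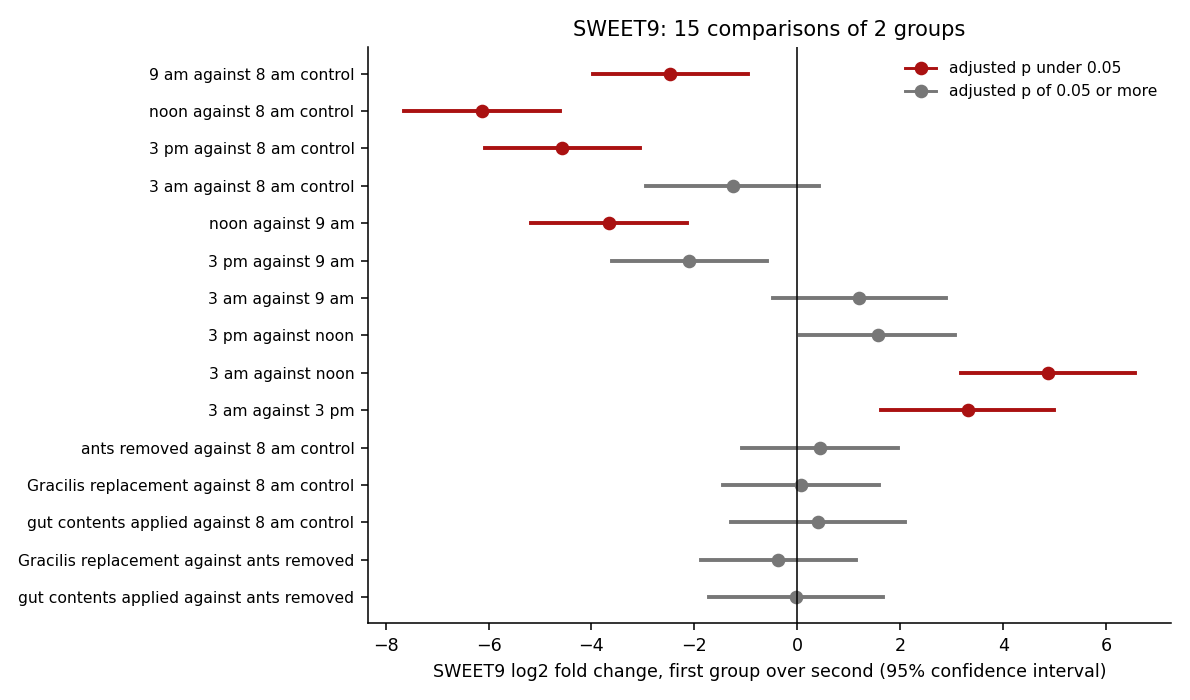
Difference of SWEET9 between groups as a log2 change with its 95% interval, 1 comparison a row; colour marks an adjusted p under 0.05. The noon and 3 pm changes against 8 am are the largest falls, -6.12 and -4.56, and the 3 ant treatments against 8 am lie between 0.07 and 0.44 with intervals that include 0.

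None of the 3 replicated ant treatments changed SWEET9 past the threshold in limma. With ants removed it differed from 8 am by 0.44 ± 0.72 on the log2 scale (SE, 95% interval -1.07 to 1.95, adjusted p = 0.685), while 27.5% of genes passed. Under Gracilis replacement the difference was 0.07 ± 0.72 (SE, 95% interval -1.44 to 1.58, limma adjusted p = 0.949), while 30.4% of genes passed. Without 8 am sample 2 it was -0.15. With gut contents applied it was 0.41 ± 0.80 (SE, 95% interval -1.28 to 2.10, limma adjusted p = 0.756), while 22% of genes passed. These intervals leave room for changes of more than 2-fold in either direction, so the data do not show that the treatments left SWEET9 unaffected. Their width rests on 1 spread shared by all groups, including the uneven 9 am, 3 pm and 3 am libraries. The SD of log2 values was 0.55, 0.16 and 0.48 in these treatments and 0.39 at 8 am, against 1.86 at 9 am. Limma fits of the compared groups alone gave adjusted p of 0.382, 0.877 and 0.579 in that order. With libraries weighted by quality in limma, ants removed differed by 0.72 (adjusted p = 0.0796). The 3 comparisons share their controls.

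The treatments were also set against the removal of ants. Under Gracilis replacement SWEET9 differed from ants removed by -0.37 ± 0.72 (log2, SE, limma adjusted p = 1), with 0% of genes called and 76 at an unadjusted p under 0.05. With gut contents applied it differed by -0.03 ± 0.80 (log2, SE, limma adjusted p = 1, 0.0652% of genes called). The sign of the second difference turned to positive without ants-removed sample 2 (0.12) or sample 3 (0.13) or without gut-contents sample 1 (0.31).

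Members of the SWEET family itself followed different courses. Of the 17 Arabidopsis SWEET loci, 8 were in the table and all 8 were tested. At noon, of the 7 others, SWEET2 and SWEET3 fell against 8 am and SWEET15 rose, with a median log2 change of 0.08 over the 7, against 0.09 over all tested genes. Of all tested genes 19.7% rose and 17.7% fell in this comparison, so these counts are near the background. SWEET2, a vacuolar glucose transporter of roots in Arabidopsis, had 292, 323 and 250 normalised counts at noon, against 2150, 1630 and 1919 at 8 am, a log2 change of -2.71 ± 0.37 (SE, limma adjusted p = 4.34e-05). SWEET3 had 213, 209 and 216 at noon, against 2472, 1699 and 1664 at 8 am (-3.16 ± 0.42, SE, limma adjusted p = 3.89e-05). Neither group pair overlapped for these genes, and both changes were smaller in size than the -6.12 of SWEET9, although these differences between genes were not tested.

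SWEET15, the senescence-associated gene 29 of the table, had 7711, 9005 and 7797 normalised counts at noon, against 3116, 2315 and 2837 at 8 am (1.57 ± 0.50, SE, limma adjusted p = 0.0197). Leaving out noon sample 2 or 8 am sample 2, or averaging the nearly identical libraries, ended this call (highest adjusted p 0.0624 in limma). At 3 pm, SWEET2 and SWEET3 fell against 8 am by a log2 change of -1.98 ± 0.37 and -2.69 ± 0.42 (SE), and 0 of the 7 rose, with a median of -0.43 against 0.00 over all tested genes, of which 17.8% rose and 19.0% fell. SWEET11, a plasma membrane sucrose exporter of the phloem parenchyma in Arabidopsis, differed from 8 am by 0.08 at noon and -0.10 at 3 pm on the log2 scale and did not pass.

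In the ant treatments SWEET3 was lower than at 8 am by a log2 change of -1.40 with ants removed, -1.82 under Gracilis replacement and -1.51 with gut contents applied. The first and last of these calls were lost in some alternatives (highest limma adjusted p 0.0859 and 0.182). SWEET11 had 128, 587 and 541 normalised counts with ants removed, against 6761, 955 and 1742 at 8 am, a log2 change of -2.70 ± 0.64 (SE, limma adjusted p = 0.00488). With the replicate block this call ended (limma adjusted p = 0.0620), and the change lay between -3.31 and -1.90 when single libraries were left out: it was smallest in size when 8 am sample 1 was omitted, largest when 8 am sample 2 was, and -1.99 when ants-removed sample 1 was. It was -2.39 under Gracilis replacement, where leaving out 8 am sample 1, the highest library, ended the call (-1.59, limma adjusted p = 0.0557), while omitting 8 am sample 2 gave -3.00. SWEET16, a vacuolar transporter, was lower under Gracilis replacement (-1.73, limma adjusted p = 0.0129, highest 0.0768 without 1 library). Of the 7 other SWEET genes, 2, 3 and 1 fell under the 3 treatments in that order and 0 rose, with medians of -0.26, -0.36 and -0.11 against -0.05, -0.03 and -0.01 over all tested genes. Of all tested genes 15.9%, 16.7% and 12.9% fell and 11.6%, 13.7% and 9.12% rose, so the counts of 2 and 1 are near the background, and 2 of the 3 Gracilis calls ended in some alternatives.

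**Figure D3:**
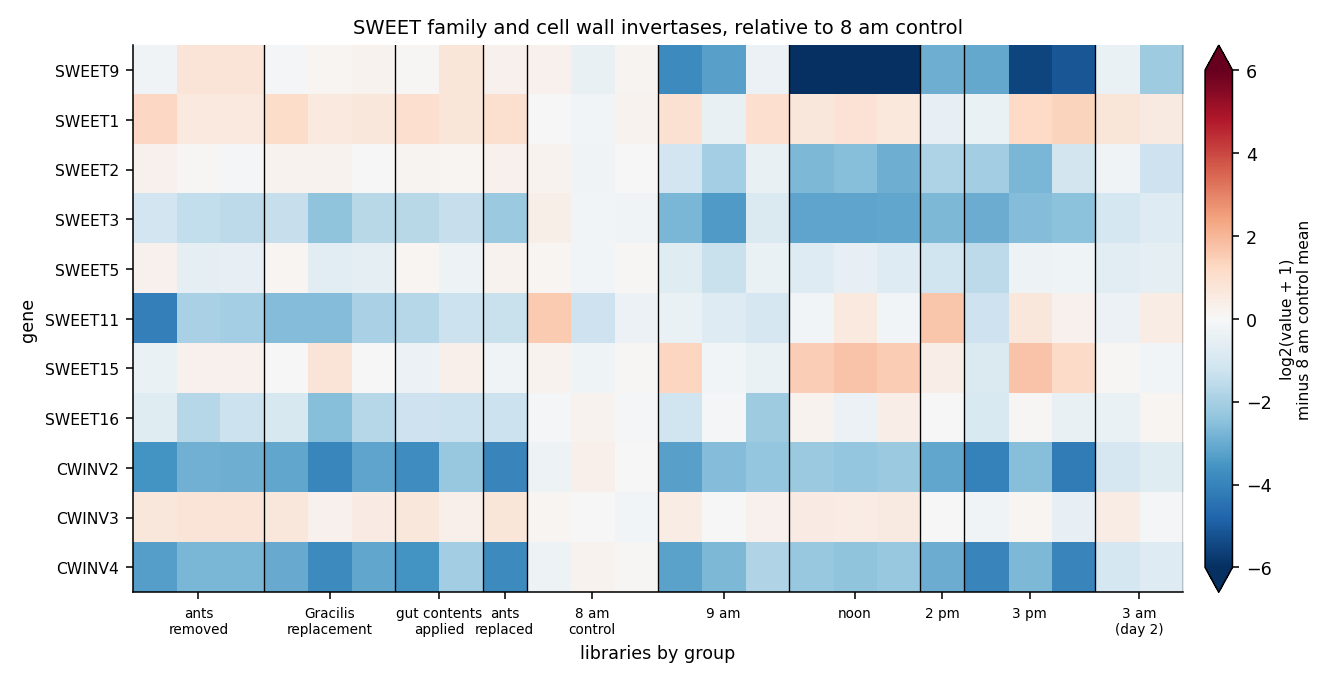
Level of each SWEET and cell wall invertase gene as log2(value + 1) minus its mean over the 8 am controls (colour, which saturates at 6 in either direction), 1 column a library, with the ant treatments, then 8 am, then the later times. SWEET9 is darkest at noon (-6.12) and pale in the ant treatments (0.07 to 0.44), while CWINV2 and CWINV4 are low in both.

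The cell wall invertases CWINV4 and CWINV2, enzymes that split exported sucrose, fell in the ant treatments, where SWEET9 did not pass the test. CWINV4 had 8579, 12606 and 12742 normalised counts with ants removed, 10563, 5917 and 9725 under Gracilis replacement and 6973 and 19730 with gut contents applied, against 69379, 99011 and 88628 at 8 am. These groups did not overlap with the controls. CWINV4 was lower by a log2 change of -2.93 ± 0.41, -3.32 ± 0.41 and -2.85 ± 0.45 (SE, limma adjusted p = 0.000124, 5.67e-05 and 0.000526) in that order, where SWEET9 differed by 0.44, 0.07 and 0.41. With gut contents applied the change of CWINV4 was -2.10 without sample 1 of that group and -3.60 without sample 2. Whether the 2 genes' changes differ from each other was not tested.

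CWINV2 fell with CWINV4, by a log2 change of -3.13, -3.41 and -2.99, the last of which was -2.27 without gut-contents sample 1 and -3.71 without sample 2. CWINV3, the third member measured, was higher with ants removed (0.73, limma adjusted p = 0.00898). By time of day CWINV4 was also lower than at 8 am, with a log2 change of -2.32 ± 0.41 at noon and -3.54 ± 0.41 at 3 pm (SE, limma adjusted p = 0.000370 and 1.85e-05). Its fall was larger at 3 pm, that of SWEET9 at noon (-6.12, against -4.56 at 3 pm). Neither gene passed between noon and 3 pm. At 9 am CWINV4 had 9260, 13012 and 24536 normalised counts, all below the controls, while SWEET9 in sample 3 of 9 am lay within the control range. Over all 24 libraries the correlation of CWINV4 with SWEET9 was 0.17, with 0.24 for deviations from group means.

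Most markers of xylem fell in the ant treatments, those of phloem and photosynthetic tissue in part, and those of guard cells and cuticle did not pass. Of 8 tested xylem markers 6, 5 and 6 fell with ants removed, under Gracilis replacement and with gut contents applied, and of 7 photosynthetic markers 3, 3 and 2 fell. Of 4 tested phloem markers 2, 2 and 0 fell, and of the 4 guard cell and 4 cuticle markers 0 passed in limma in any of the 3. At an unadjusted p under 0.05 there were 2 phloem and 1 guard cell markers with gut contents applied, 0 guard cell markers in the other treatments and 0 cuticle markers in all 3. The share of all tested genes that fell was 15.9%, 16.7% and 12.9%. The summed phloem markers (5 of 6 listed were in the table) ranged from 12676 to 13206 normalised counts with ants removed, 12983 to 13872 under Gracilis replacement and 13517 to 14170 with gut contents applied, against 29385 to 39313 at 8 am. The xylem markers (8 of 9) ranged from 2976 to 4202 in these treatments, against 9368 to 22765. The photosynthetic markers (7 of 7) ranged from 87513 to 114656, against 170101 to 230084. The cuticle and epidermis markers (4 of 5) ranged from 2185 to 5158, against 5304 to 6489, and those of guard cells (4 of 7) from 1007 to 1681, against 1463 to 2013. AHA3, a phloem proton pump, was listed at 0 in 10 libraries. All of these sums except the guard cell one lay outside the control range, while SWEET9 overlapped with it, and their part in the results was not tested. The phloem sum was carried mainly by SEOR1, a sieve element protein, and the sucrose loader SUC2, with means of 15395 and 8953 normalised counts over all libraries. By time of day, the photosynthetic sum was 94631 to 118294 at 9 am, 89276 to 93367 at noon and 57541 to 100357 at 3 pm, also below the controls. The cuticle sum was 2014 to 3831 at 9 am and 1335 to 4143 at 3 pm, below the controls, and the xylem sum was 6263 to 10557 at 9 am and 4657 to 13935 at 3 pm, overlapping with them. The guard cell sum was 1230 to 1349 at 9 am, below the controls, and 797 to 2205 at 3 pm, and the phloem sums of both times, 20493 to 46935 and 18945 to 57130, overlapped with the controls. At 3 pm 6 of 8 xylem and 7 of 7 photosynthetic markers fell against 8 am, and at noon 0 and 6 did. Of all tested genes 19.0% fell at 3 pm and 17.7% at noon. At noon 1 marker each of xylem, phloem, guard cell and cuticle rose, while 19.7% of all tested genes rose. At noon the guard cell sum was 2153 to 2333, above every control, and the cuticle sum 3821 to 4071, below every control. The phloem sum was 28000 to 28764, below the lowest control, while the xylem sum of 16587 to 18711 lay within the controls' range. Their part in the falls of SWEET9 at these times was not tested either.

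Of the 4 tested genes of sucrose synthesis 1 rose and 1 fell in each ant treatment. Of the 5 of sucrose cleavage inside the cell 1 rose and 2 fell in each. Of all tested genes 11.6%, 13.7% and 9.12% rose and 15.9%, 16.7% and 12.9% fell with ants removed, under Gracilis replacement and with gut contents applied. In lists this small, 1 or 2 calls cannot be told from these shares. The sucrose synthase SUS3 rose by 1.02, 1.00 and 1.10 on the log2 scale against 8 am with ants removed, under Gracilis replacement and with gut contents applied. Its values were 107880, 137181 and 135397 normalised counts with ants removed, against 70216, 57593 and 59308 at 8 am (limma adjusted p = 0.00766). The call of SUS3 with gut contents applied ended without either library of that group or with the block (highest limma adjusted p 0.0878). SUS6, another sucrose synthase, had means of 34.3, 38 and 23.5 normalised counts in these treatments, against 855 at 8 am (log2 changes of -4.45, -4.39 and -4.95). The phosphate synthase SPS1F rose by 0.69, 0.71 and 0.66, but each of these calls ended in some alternatives (highest limma adjusted p 0.0741, 0.0580 and 0.531). SPS4F, another sucrose phosphate synthase, had 66, 84 and 87 normalised counts with ants removed, against 450, 475 and 152 at 8 am, a log2 change of -2.01 ± 0.47 (SE, limma adjusted p = 0.00431). Its log2 change was -2.09 under Gracilis replacement and -2.18 with gut contents applied (limma adjusted p = 0.00302 and 0.00698), and without gut-contents sample 2 the last call ended (limma adjusted p = 0.105). With ants removed its change ranged from -2.54 when 8 am sample 3, its lowest control, was left out to -1.73 when 8 am sample 2 was. The vacuolar invertase VI2 had log2 changes of -2.57, -2.42 and -2.72 in the 3 treatments (limma adjusted p = 0.0201, 0.0243 and 0.0310), calls that ended in some alternatives (highest 0.107, 0.126 and 0.146).

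Of 8 listed nectary regulators, 2 were in the table, BOP1 and PIN6. Both fell in all 3 replicated ant treatments, where SWEET9 did not pass the test. Of all tested genes 15.9%, 16.7% and 12.9% fell with ants removed, under Gracilis replacement and with gut contents applied. BOP1, a transcriptional co-activator that shapes leaf and flower bases in Arabidopsis, had 124, 186 and 140 normalised counts with ants removed, against 548, 385 and 552 at 8 am (log2 change -1.72 ± 0.31, SE, limma adjusted p = 0.000732). PIN6, an auxin transporter linked to nectar secretion in Arabidopsis, had 52, 48 and 42 with ants removed, against 397, 347 and 229 at 8 am (-2.72 ± 0.68, SE, limma adjusted p = 0.00710). In neither gene did the groups overlap, and both were lowest in libraries of the ant treatments. With gut contents applied both calls ended without sample 1 of that group (limma adjusted p = 0.103 for BOP1 and 0.135 for PIN6).

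At noon, 4 of the 5 tested genes of sucrose cleavage inside the cell fell against 8 am and 0 rose, with a median log2 change of -1.25, while 17.7% of all tested genes fell and 19.7% rose. The log2 changes of SUS1 and SUS3 were -1.27 and -1.25, and the calls of CINV1 and VI2, a cytosolic and a vacuolar invertase, ended in some alternatives (highest limma adjusted p 0.133 and 0.0919). Of the 4 tested genes of sucrose synthesis 2 fell, SPS3F with a log2 change of -1.60 and SPS1F with -0.65, a call that ended in some alternatives (highest limma adjusted p 0.0673). Among the 10 other sugar transporters tested, 2 fell and 1 rose, shares near those of all tested genes. The vacuolar sucrose carrier SUC4 had a log2 change of -1.27 (2162, 2194 and 2086 normalised counts at noon, against 5704, 4068 and 6011 at 8 am, limma adjusted p = 0.000141). STP13, a hexose importer, had a log2 change of -1.50 (limma adjusted p = 5.48e-05). The rise was that of STP1, another hexose importer (1.09, limma adjusted p = 0.0462, highest 0.277 among the alternatives). In the same comparison, against these shares of 19.7% and 17.7%, 5 of 12 starch breakdown genes rose and 1 fell. The rise with the largest adjusted p ended in some alternatives (highest limma adjusted p 0.0614). Among those that rose was GWD1, the glucan water dikinase that opens the starch granule, higher by 2.18 ± 0.31 (SE, limma adjusted p = 6.54e-05).

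The plant clock is a loop of transcription factors that peak at set times of day and repress each other. LHY, a morning-phased repressor of the clock, had 987, 1034 and 1112 normalised counts at noon, against 135217, 97394 and 121903 at 8 am, a log2 change of -6.81 ± 0.84 (SE, limma adjusted p = 1.87e-05). TOC1, an evening gene that represses LHY, had 4586, 5051 and 4782 at noon, against 986, 935 and 904 at 8 am (2.35 ± 0.43, SE, limma adjusted p = 0.000488). GI, an afternoon gene, differed by 1.43 ± 0.65 (SE, limma adjusted p = 0.0916). Of 12 tested clock genes 3 rose and 4 fell at noon, against 19.7% and 17.7% of all tested genes.

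SWEET9 went with LHY across libraries and against TOC1. Pearson's r with LHY was 0.92 over 24 libraries on the log2 scale, but 0.37 for deviations from group means. With TOC1 it was -0.78 over libraries and -0.87 for deviations. In 9 am sample 3, where SWEET9 was 134932, LHY was 83100 and TOC1 569, against LHY of 20730 and 2525 and TOC1 of 3773 and 2205 in the other 9 am libraries. At 3 am, where SWEET9 was 129912 and 39033, LHY was 83028 and 52680. In the ant treatments LHY differed from 8 am by 0.40, 0.25 and 0.46 on the log2 scale and TOC1 by 0.84, 1.11 and 0.73, none past the threshold in limma. GI fell with ants removed, to 362, 1018 and 938 normalised counts, against 4347, 3068 and 4364 at 8 am (-2.46 ± 0.65, SE, limma adjusted p = 0.00991), and under Gracilis replacement (-2.45 ± 0.65, SE, limma adjusted p = 0.00930). Its change with gut contents applied was -1.97 (limma adjusted p = 0.0610). RVE8, a clock activator, rose by 2.11 with ants removed and 2.29 under Gracilis replacement, and ELF3, of the evening complex, by 0.84 and 0.96, but these calls ended in some alternatives (highest limma adjusted p 0.0994, 0.0559, 0.103 and 0.0512). These were the clock genes called in those treatments, 2 up and 1 down of 12 in each. Of all tested genes 11.6% and 13.7% rose there and 15.9% and 16.7% fell, so these counts are near the background. With gut contents applied 0 clock genes passed in limma, with 3 at an unadjusted p under 0.05, while 9.12% of all tested genes rose and 12.9% fell. The correlations above are descriptions: the libraries share the authors' scaling and fall largely into a high and a low group.

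**Figure D4:**
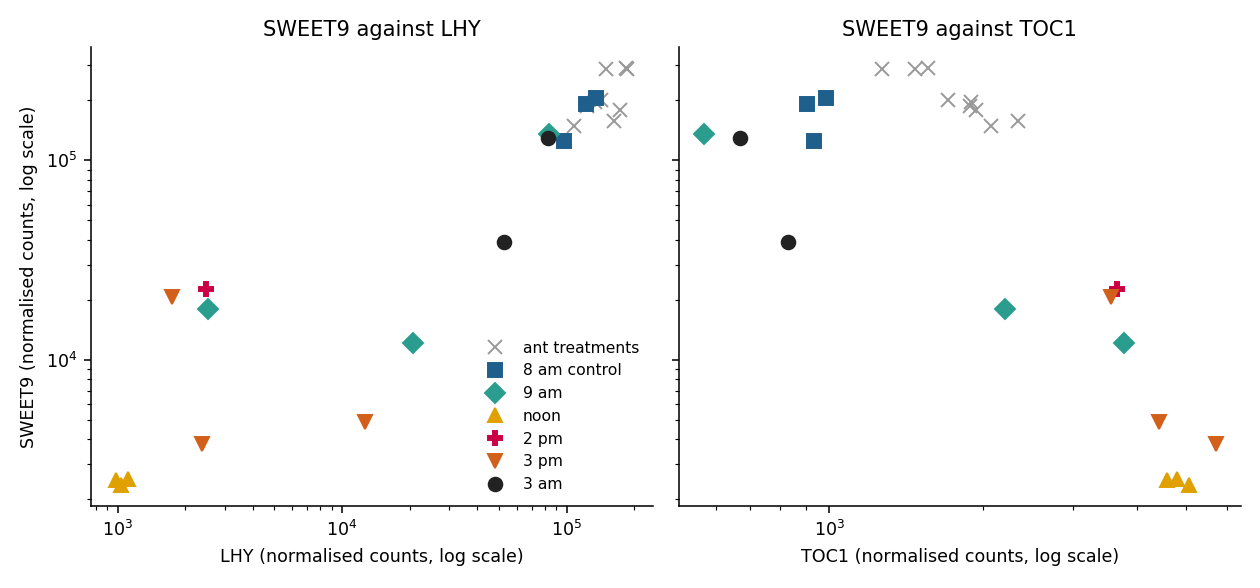
SWEET9 against LHY and against TOC1, each as normalised counts on log axes, 1 point a library, with its group shown by symbol and colour. Libraries with high SWEET9 have high LHY (r of 0.92, but 0.37 for deviations from group means) and tend to have lower TOC1 (r of -0.78). TOC1 lay between 904 and 986 at 8 am and between 1266 and 2342 in the ant treatments. The latter range includes the TOC1 of 9 am sample 2 (2205), where SWEET9 was 17905.

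Across the whole table many genes tracked SWEET9. Of 12264 tested genes, 164 (1.34%) had r of at least 0.9 with it over 24 libraries and 85 (0.693%) of at most -0.9, and the median r was -0.12. The closest was AT2G43010, which the table describes as phytochrome interacting factor 4, a transcription factor that phytochrome destabilises in light and that promotes growth in Arabidopsis. Its r was 0.975 and Spearman's rho 0.937. Without the noon libraries 2 and 1, the farthest from the median of SWEET9, r was 0.966, and over deviations from group means it was 0.803.

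AT2G43010 had 93, 62 and 89 normalised counts at noon and 2287, 1641 and 1491 at 8 am. It had 327, 388 and 1193 at 9 am, and 1181 and 1250 at 3 am. With ants removed it had 1322, 3113 and 2845. Like SWEET9 it was low at noon, high at 8 am and in the ant treatments, and of the 9 am libraries highest in sample 3.

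The next closest were AT3G16350 (r of 0.974), a homeodomain-like protein with 69, 79 and 46 normalised counts at noon and 4025, 2879 and 2611 at 8 am, and AT2G46670 (r of 0.974), a CCT motif protein. AT5G49230 (r of 0.973), a drought-responsive family protein, and AT2G45120 (r of 0.964), a C2H2-like zinc finger protein, kept r of 0.932 and 0.933 over deviations. The rest of the 10 closest, with r from 0.959 to 0.964, were AT3G51790, AT2G38740, AT5G47110 (chlorophyll A-B binding family), AT5G44400 (FAD-binding Berberine family) and AT3G19900. They were picked for this likeness, so no test is given.

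The genes most opposed to SWEET9 were AT1G12940 (r of -0.972), AT4G22130 (-0.963), AT2G37050 (-0.962), AT1G06150 (-0.961) and AT2G47850 (-0.957). AT1G12940, which the table calls nitrate transporter2.5, had 2650, 3364 and 2938 normalised counts at noon and 56, 124 and 44 at 8 am. It had 3042, 551 and 82 in 9 am samples 1, 2 and 3, the last of which had the highest SWEET9. By deviations from group means alone, over the 22 libraries of replicated groups, the closest were AT1G11390 (0.960), AT1G27650 (0.959), AT1G76010 (0.943), AT5G35460 (0.943) and AT3G14960 (0.942). The deviations of SWEET9 were largest at 9 am, 3 pm and 3 am (SD of log2 values 1.86, 1.32 and 1.23, at most 0.55 in other groups). These uneven groups therefore weigh most in every r of deviations. AT1G11390, a kinase, followed SWEET9 in its deviations but had only 1995, 2340 and 2346 with ants removed, against 5602, 4130 and 5692 at 8 am, where SWEET9 overlapped.

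**Figure D5:**
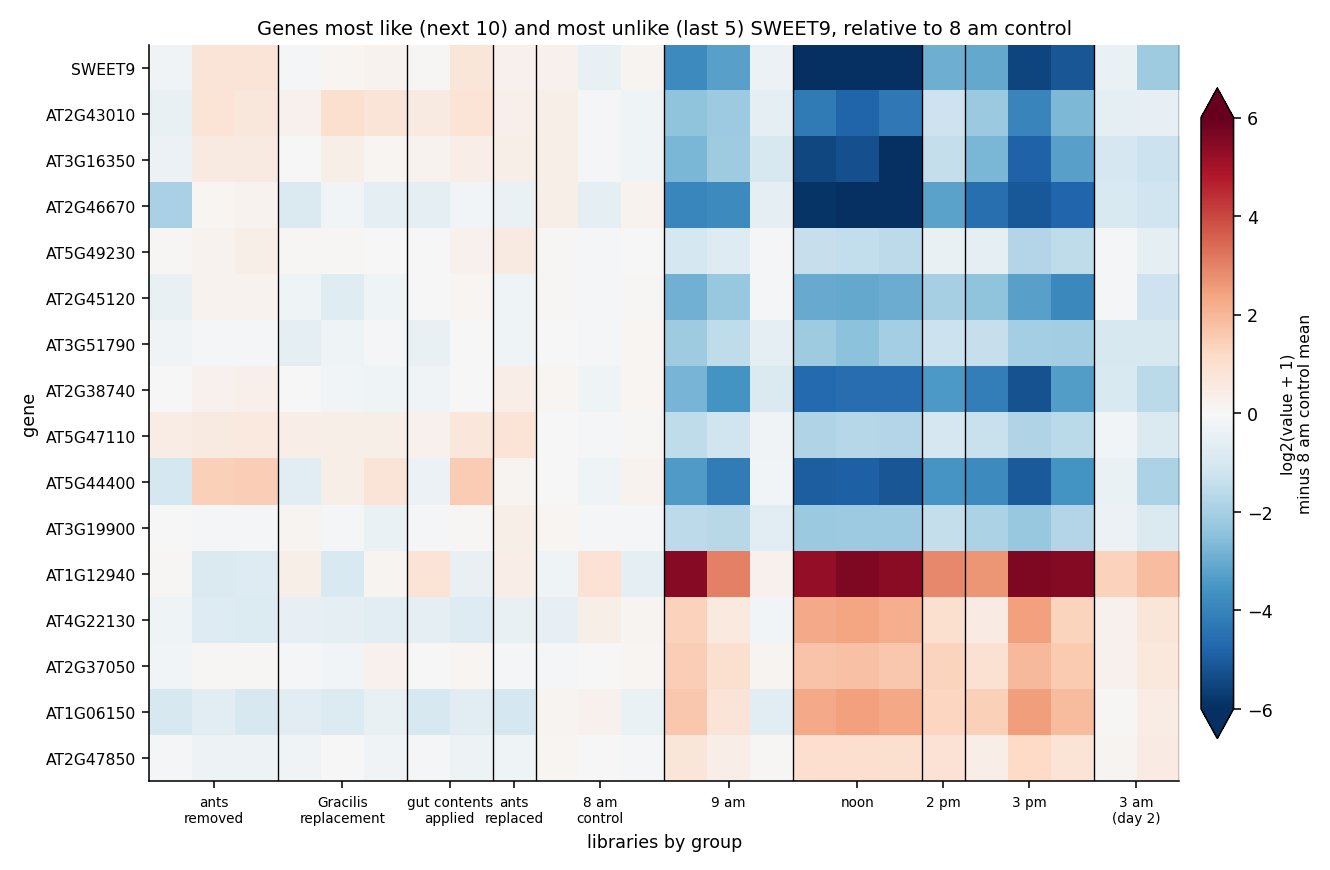
Level of SWEET9, the 10 genes with the highest and the 5 with the lowest correlation with it, as log2(value + 1) minus the mean of the 8 am controls (colour, which saturates at 6 in either direction), 1 column a library, with the ant treatments, then 8 am, then the later times. The first 10 are low at noon with SWEET9, and AT1G12940 and the other 4 opposed genes are high at noon; 9 am sample 3 is pale in both sets.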

How the data were processed

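Extrafloral nectary RNA was sequenced in 24 barcoded paired-end libraries, per the labels. The authors deposited normalised counts, treated here as a score because they were scaled across libraries and then rounded. How they were scaled, and which aligner and annotation were used, is not stated in the sources used here. Reads could not be recovered from the rounded values, so no count model was used and depth is unknown. The authors' means of 10 groups were not used. SWEET9 and the gene lists were chosen with earlier results of these data known.

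Values were tested as log2(value + 1), which understates changes of low genes. All 24 libraries and 10 groups entered 1 fit (limma 3.58.1, R 4.3.3, trend, 14 residual and 3.66 prior degrees of freedom); single libraries add no spread. The 12264 genes with a mean of at least 10 were tested, 386 were left out, tests were 2-sided and p-values adjusted by Benjamini and Hochberg at 0.05. Correlations used the same scale. The fit was tested on simulated data with independent libraries and, for each gene, 1 spread in all groups. That simulation cannot show how the fit behaves with the uneven groups and nearly identical libraries found here.

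Genes were named by rule: SWEET9, all listed SWEET and cell wall invertase genes, up to 4 genes with the smallest p of each other list, LHY, TOC1 and GI, and the genes most and least correlated with SWEET9. The pairing of sample numbers was checked by correlating deviations from group means. All pairs passed 0.1 for 9 am against 8 am (0.161 to 0.416) and for Gracilis replacement against ants removed (0.220 to 0.514). The labels do not explain this pairing.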

Additional observations from a re-analysis of the deposited data

How the results depend on the processing

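Of 210 values of 16 comparisons of SWEET9 under alternatives, 190 kept direction and side of the threshold, 11 lost the call, 3 gained it and 6 turned sign. The turned signs belong to differences near 0: Gracilis replacement against 8 am, and gut contents against ants removed (0.13 with the nearly identical pairs averaged and 0.13 with the replicate block). Averaging those pairs gave -2.47 for 9 am against 8 am (limma adjusted p = 0.0520) and -3.67 for noon against 9 am (0.0601). Fitting the compared groups alone gave the same -2.47, -3.66 and 3.30 as before for 9 am against 8 am, noon against 9 am and 3 am against 3 pm, with limma adjusted p = 0.179, 0.0528 and 0.126. With the replicate block, 9 am against 8 am was -2.47 (0.0807); it ended no other call of SWEET9. Leaving out 1 library gave -3.53 to -1.80 for 9 am against 8 am, -2.85 to -1.04 for 3 pm against 9 am, 0.34 to 2.27 for 3 am against 9 am, 2.44 to 4.17 for 3 am against 3 pm, -0.15 to 0.21 for Gracilis replacement against 8 am and -0.37 to 0.31 for gut contents against ants removed. The cause of these changes was not tested. Noon and 3 pm against 8 am, 3 am against noon and the F test kept their calls under every alternative run. Of the 10 genes closest to SWEET9, 5 were shared with a ranking by Spearman correlation and 1 with a ranking by deviations from group means. For other named genes, alternatives chosen after seeing the data gave 1974 values of 155 calls, of which 252 lost the call and 0 turned sign. These calls include those of the 10 closest genes. Such genes were picked for likeness to SWEET9 in the same libraries, so their calls follow in part from that choice. Depth is unknown, and 2 or 3 libraries a group limit every test.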
